A study of Sus scrofa with 18 samples.

Results

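The genes described here encode, in the nucleus, the subunits of the 5 oxidative phosphorylation complexes of mitochondria, measured in alveolar macrophages of pigs. They were taken by gene symbol from the table of read counts: the NDUFA, NDUFB, NDUFC, NDUFS and NDUFV series for complex I, the 4 SDH genes for complex II, symbols that start with UQCR for complex III, COX4 to COX8 symbols for complex IV and ATP5 symbols for complex V. Of 30686 rows, 69 matched: 38 for complex I, 4 for complex II, 2 for complex III, 8 for complex IV and 17 for complex V. The choice used names alone and no measured value. Of the 69, 67 had enough counts to be tested, among 13592 genes tested in all. The remaining 2 had no count in any library: COX8H, and a second NDUFA4 row on chromosome 13 that RefSeq annotates as a pseudogene. A few symbols need a remark. NDUFA4 is named as a complex I gene but its protein is now placed in complex IV, and ATP5S and ATP5SL carry the ATP5 name although their products are not core subunits of ATP synthase.

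Oxidative phosphorylation passes electrons from NADH, through complex I, and from succinate, through complex II, to ubiquinone, then through complex III and cytochrome c to oxygen at complex IV. Complexes I, III and IV pump protons across the inner mitochondrial membrane, and complex V, the ATP synthase, uses their return to make ATP. Complexes I, III, IV and V also contain subunits encoded by the mitochondrial genome, whereas complex II is entirely nuclear. Resting alveolar macrophages rely strongly on this pathway, and inflammatory activation of macrophages is known to turn them towards glycolysis and to alter succinate oxidation at complex II.

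The macrophages, the phagocytes that reside in the lung airspaces, came from healthy Danish Landrace-Yorkshire pigs and were kept ex vivo for 24 h with 1 of 6 treatments. One group received nothing (control). A second received poly I:C, a synthetic RNA duplex used to mimic a viral infection. The gram-positive probiotic bacteria Bacillus subtilis and Enterococcus faecium were each given alone and each together with poly I:C. Each treatment had 3 libraries, labelled pig 1, pig 2 and pig 3 (18 libraries). The sources used here do not give the age of the pigs, the doses, the bacterial strains or whether live bacteria were used. Values below are CPM, counts as a fraction of the library total, corrected by TMM factors and written on the usual scale of this unit, and are listed in the order of the pig number. A gene is said to have risen or fallen only at an adjusted p under 0.05 in edgeR's quasi-likelihood test, with Benjamini-Hochberg adjustment over all genes tested.

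Totals were 16346750 to 27274279 counts per library, and the 69 genes held 0.354 to 0.682% of them. Macrophage genes were present throughout: the summed level of the 10 macrophage markers was 2218 to 2894 CPM in control and 1954 to 3733 CPM over the other libraries, with CD68 at 289 to 778 CPM and C1QA at 458 to 1440 CPM. FABP4, another listed macrophage marker, stayed at 0.827 to 5.86 CPM. The other listed markers varied between libraries. MARCO was at 6.62 to 189 CPM, SIGLEC1 at 83.5 to 908, CD163 at 80.4 to 395 and PPARG at 113 to 454 CPM. MRC1 was at 202 to 656 CPM and MSR1 at 31.8 to 70.5 CPM. CSF1R was at 437, 295 and 446 CPM in control and at 154, 129 and 197 CPM with B. subtilis. Markers of T, NK and B cells summed to 24.8 to 82 CPM and those of endothelium and fibroblasts to 1.36 to 8.96 CPM. The epithelial markers summed to 28.5 to 390 CPM and consisted mainly of EPCAM. SCGB1A1 and KRT8 were highest in pig 3 of B. subtilis with poly I:C, at 5.63 and 3.5 CPM, and KRT18, KRT5, SFTPC and SFTPB reached at most 1.23 CPM. The neutrophil markers summed to 707 to 1317 CPM in control and 2235 to 3173 CPM with B. subtilis. In B. subtilis with poly I:C the sum was 1478 to 3315 CPM, and with poly I:C alone 610 to 2202 CPM. For E. faecium it was 945 to 1380 CPM alone and 639 to 1811 CPM with poly I:C. S100A12 made up most of that sum, at 547 to 3270 CPM, and is also known in monocytes and macrophages. Of the other neutrophil markers, CSF3R was at 21.1 to 110 CPM and CXCR2 at 2.86 to 49.6 CPM, ELANE reached at most 0.164 CPM, and MPO was at 0. The part of neutrophils in the results was not tested. In bulk RNA, fewer cells of a type and less RNA per cell cannot be told apart.

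The pig numbers did not match how the libraries varied. After the treatment means were removed, libraries with the same number had a median correlation of -0.243 over 45 pairs (range -0.527 to 0.738), close to the median of -0.239 for different numbers over 90 pairs. A search over all 7776 ways to take 1 library per treatment into each of 3 sets, made without the genes described here, found sets whose libraries correlated at a median of 0.643 (0.414 to 0.797). Set A held control 1, poly I:C 1, B. subtilis 3, E. faecium 3, B. subtilis with poly I:C 1 and E. faecium with poly I:C 3. Set B held control 2, poly I:C 2, B. subtilis 1, E. faecium 2, B. subtilis with poly I:C 2, and E. faecium with poly I:C 1, and set C the remaining libraries. Only 10 of 18 libraries were in the set of their number, with every mismatch among the libraries that received E. faecium, with or without poly I:C, or B. subtilis alone. The main results therefore use no block. Results with the library set as a block are given beside them, and their p-values are too small insofar as the sets were found in these same libraries.

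Oxidative phosphorylation genes stood apart in a few libraries. In the library labelled B. subtilis with poly I:C, pig 1, 62 of 67 genes lay above the control mean, with a median log2 ratio of 1.17. In pig 3 of the same treatment 58 of 67 lay above it, with a median of 0.81, whereas pig 2 had 33 of 67 and a median of -0.01. By median, the library of poly I:C alone labelled pig 1 was next, at 0.53, with 57 of 67 above. The plot of log2 ratios by library shows this split within treatments.

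**Figure D1:**
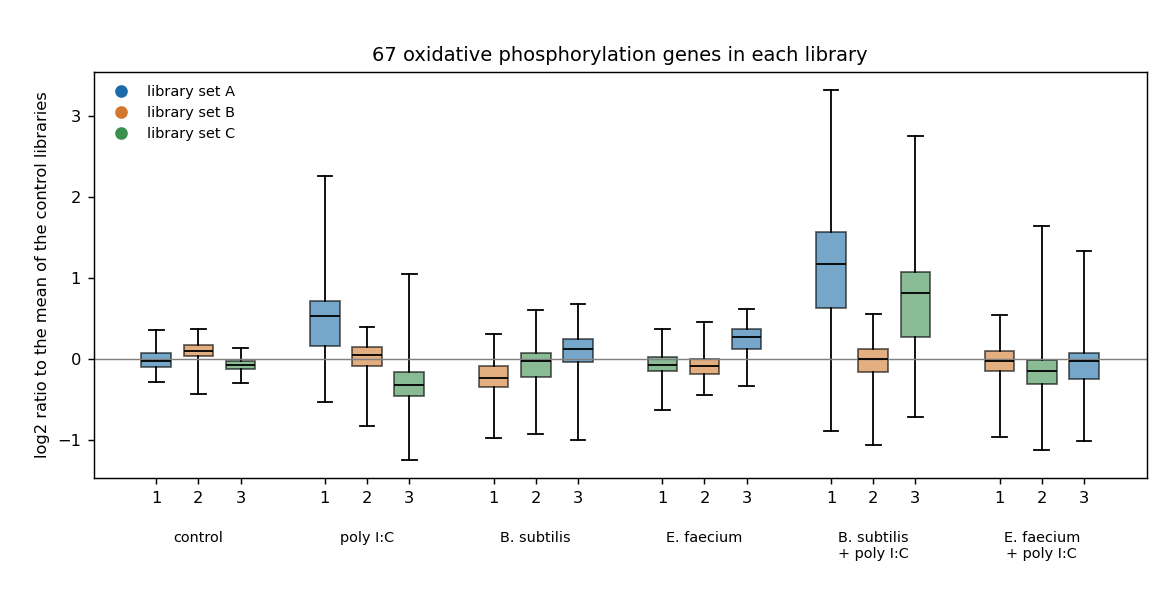
Log2 ratio of each of the 67 tested genes to the mean of the control libraries (y axis) in each of the 18 libraries (x axis, by treatment and pig number). Boxes span the quartiles, the line is the median, whiskers reach the lowest and highest gene, and colour gives the library set; pig 1 and pig 3 of B. subtilis with poly I:C have medians of 1.17 and 0.81, and pig 2 has -0.01. Scaled by library totals only, every treatment with poly I:C would lie lower.

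These libraries also differed elsewhere. The TMM factors of pigs 1 and 3 of B. subtilis with poly I:C were 0.664 and 0.719, the lowest of the 18 libraries, and the 10 most abundant genes took 17.1% and 16.2% of their counts. Cytosolic ribosomal protein genes had median log2 ratios of 1.71 and 1.21 in them, mitochondrial ribosomal protein genes 0.84 and 0.46, and proteasome core genes 1.92 and 1.43; these comparison groups were chosen after the values were seen. Across the 67 genes, the log2 ratio and the length of the annotated gene span had a Spearman correlation of -0.39 in pig 1 and -0.33 in pig 3, and of 0.21 in pig 2. It was -0.35 in pig 3 of E. faecium, where 62 of 67 genes also lay above the control mean (median log2 ratio 0.27), and -0.28 in pig 1 of poly I:C. Across 13341 genes the values for these 5 libraries, in the same order, were -0.22, -0.18, 0.13, -0.2 and -0.13. The part of any of these in the results was not tested. The total counts of genes called in B. subtilis with poly I:C are given with and without its pigs 1 and 3, as are some single genes. Other fold changes of that treatment, and its counts and medians by complex, include them.

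Of the 67 genes, 18 (26.9%) differed among the 6 treatments at an adjusted p under 0.05, against 29.7% of all genes tested. By complex these were 9 of 37 genes of complex I, 1 of 4 of complex II, 0 of 2 of complex III, 4 of 7 of complex IV and 4 of 17 of complex V; for the genes of complex III, UQCR10 had an adjusted p of 0.085 and UQCRB of 0.365. DESeq2 called 39 of the 67, against 40.9% of all genes. A block for the library set gave 49 of 67, against 58.1% of all genes. Without pigs 1 and 3 of B. subtilis with poly I:C, 3 of 67 did, against 23.7% of all genes. The share of these genes that differed thus lay below that of all genes in the first and last of these fits and above it in the others.

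**Figure D2:**
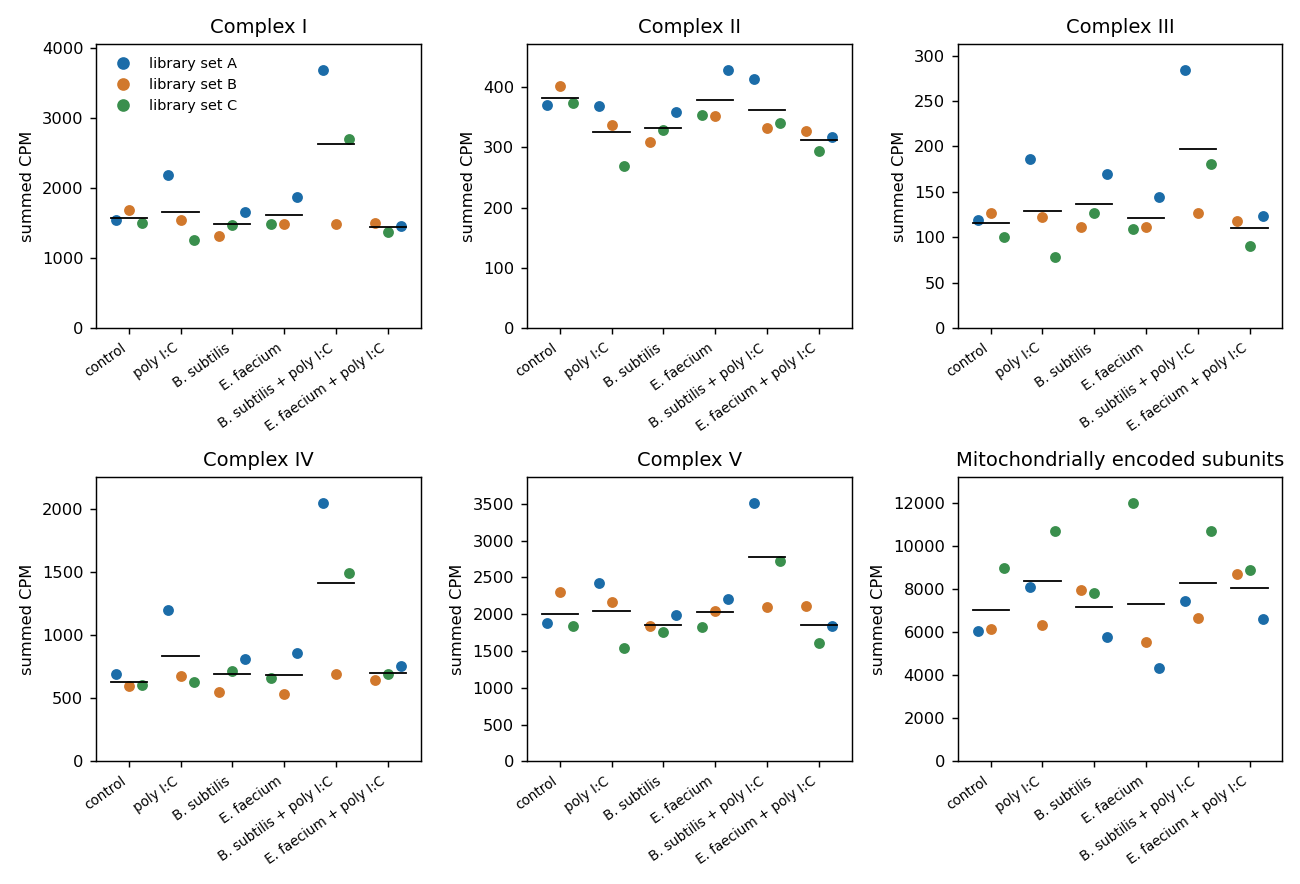
Summed CPM of the genes of each complex and of the mitochondrially encoded subunits (y axes, from 0) in each library, grouped by treatment (x axis). Points are libraries coloured by library set and bars are means of 3; complexes I, III, IV and V are highest in pig 1 of B. subtilis with poly I:C, and complex II is not.

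The sums by complex show where the spread lies. All tested genes together summed to 4716 ± 366 CPM (SD, n = 3) in control and to 7374 ± 2600 CPM (SD, n = 3) with B. subtilis and poly I:C. Complex I summed to 1546, 1691 and 1495 CPM in control and to 3684, 1489 and 2697 CPM with B. subtilis and poly I:C. Complex IV summed to 694.3, 601.6 and 603.7 CPM in control and to 2049, 693.6 and 1498 CPM with that treatment. In both complexes pigs 1 and 3 lay far above all control libraries and pig 2 lay among or near them. Complex II behaved otherwise, with 370.1, 402.3 and 372.8 CPM in control against 412.7, 332.2 and 341 CPM, so that these groups overlapped. Poly I:C alone gave 369.4, 336.4 and 268.6 CPM for complex II, all below control but the first by less than 1 CPM. E. faecium with poly I:C gave 327.5, 293.4 and 316.7 CPM, below every control library.

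Against control, poly I:C alone raised 0 and lowered 2 of the 67 genes, where 12.9% of all genes rose and 9.55% fell. The median log2 fold change of the 67 was 0.11, against -0.01 for all genes. With library totals in place of TMM factors these medians were -0.42 and -0.54, so the sign of the group's median depended on the scaling. B. subtilis alone raised 0 and lowered 1, where 2.75% of all genes rose and 1.69% fell, and the median was -0.05. E. faecium alone changed 0 of 67 and 0% of all genes; 0 of the 67 and 2.05% of all genes had an unadjusted p under 0.05, and the median was 0.03. DESeq2 called 0 of the 67, but it gave an adjusted p to 3 of them only. Of the 943 genes in all that it gave one, it called 38. Poly I:C lowered NDUFS3 and SDHB, and B. subtilis lowered NDUFS3. With poly I:C, 2 of the 67 genes lay wholly above control and 6 wholly below, against 19.4% and 19.2% of all genes. For B. subtilis these were 2 and 8 (all genes, 13% and 14.3%), and for E. faecium 1 and 0 (1.76% and 2.18%). For B. subtilis with poly I:C they were 12 and 2 (19.8% and 21.6%), and for E. faecium with poly I:C 2 and 14 (22.5% and 21.1%). Each lack of overlap given below is to be read against these shares.

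NDUFS3 encodes a core subunit of the peripheral arm of complex I, which carries electrons towards ubiquinone; the gene lies on chromosome 2, 15031147 to 15036880 (Sscrofa11.1). It was at 54, 63.2 and 59.5 CPM in control. With poly I:C it was at 40.6, 34.9 and 30.1 CPM, and with B. subtilis at 30.6, 30.5 and 29.1 CPM. All 6 of these libraries lay below every control library. E. faecium gave 44.5, 55.1 and 46.9 CPM, which overlapped control, and E. faecium with poly I:C gave 36.3, 31.3 and 30.1 CPM, which did not. B. subtilis with poly I:C gave 57.8, 32 and 52.1 CPM, so that only pig 2 was as low as with either agent alone.

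NDUFS3 fell with poly I:C by 0.74 on the log2 scale (SE 0.197, adjusted p = 0.0133). It fell by 0.97 with B. subtilis (SE 0.198, adjusted p = 0.0121) and by 0.85 with E. faecium and poly I:C (SE 0.197, adjusted p = 0.00555). With B. subtilis and poly I:C the log2 fold change was -0.32 (SE 0.196, adjusted p = 0.224); without pigs 1 and 3 of that treatment it was -0.89 (adjusted p = 0.0155), with 1 library left and its spread taken from the other groups. The call for poly I:C did not hold without pig 3 of poly I:C, at -0.64. The call for B. subtilis did not hold without pig 3 of control (-0.96) or pig 2 of B. subtilis (-0.96). That for E. faecium with poly I:C held with each of the 18 libraries left out in turn.

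As a share of the summed CPM of complex I, which no scaling factor alters, NDUFS3 took 3.49, 3.74 and 3.98% in control. It took 1.86, 2.26 and 2.4% with poly I:C, 2.33, 2.06 and 1.75% with B. subtilis, 1.57, 2.15 and 1.93% with both, and 2.42, 2.27 and 2.06% with E. faecium and poly I:C. All 12 of these libraries lay below every control library, and also below the E. faecium libraries at 2.99, 3.71 and 2.5%. The annotated span of NDUFS3 overlaps KBTBD4, and without knowledge of the strand their reads cannot be told apart; KBTBD4 was at 18.8 to 25 CPM in control, 21.1 to 22.9 CPM with poly I:C and 17.9 to 22.5 CPM with B. subtilis.

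**Figure D3:**
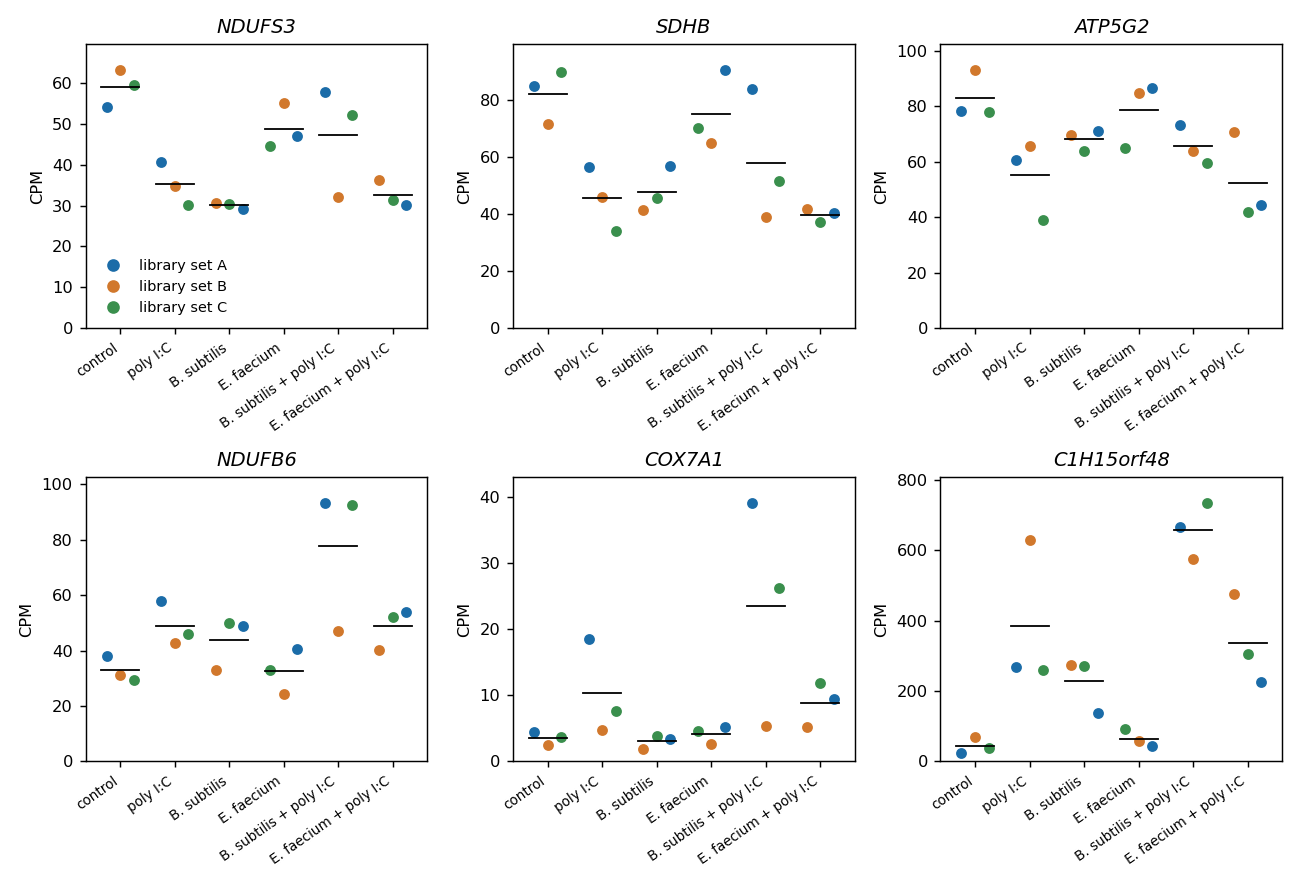
CPM (y axes, from 0) of NDUFS3, SDHB, ATP5G2, NDUFB6, COX7A1 and C1H15orf48 in each library, grouped by treatment (x axis); points are coloured by library set and bars are means of 3. NDUFS3 and SDHB lie below control in every library of poly I:C, of B. subtilis and of E. faecium with poly I:C, and C1H15orf48 lies above control in every library of these treatments; these directions held with library totals only.

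Among the accessory subunits of complex I, NDUFB6, in the membrane arm, was at 38.2, 31.1 and 29.3 CPM in control and at 57.9, 42.9 and 46 CPM with poly I:C. E. faecium with poly I:C gave 40.1, 52.3 and 53.8 CPM and B. subtilis with poly I:C 93.3, 47.2 and 92.7 CPM. Each of the 9 libraries with poly I:C lay above every control library, whereas B. subtilis alone, at 32.9, 50 and 48.9 CPM, overlapped control. The log2 fold change with poly I:C was 0.57 (SE 0.267, adjusted p = 0.141) and did not pass. With the library set as a block it was 0.565 (SE 0.165, adjusted p = 0.0123), and with library totals only it was 0.04.

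NDUFV3, a small flavoprotein subunit of the NADH-oxidising module, fell with E. faecium and poly I:C by 0.93 (SE 0.295, adjusted p = 0.0331), from 23.9, 36.1 and 25 CPM in control to 18.6, 12.5 and 13.6 CPM. Leaving out any of 4 libraries ended that call, each one from control or from this treatment. With poly I:C alone it was at 23.2, 19.4 and 11.6 CPM, also below every control library, although the first was within 1 CPM of it, and the change did not pass (log2 fold change -0.65, adjusted p = 0.131). NDUFA13, an accessory subunit also known as GRIM-19, was at 42.3, 45 and 42.2 CPM in control and at 77.8, 42.6 and 36.8 CPM with poly I:C. NDUFB9, of the membrane arm, was at 59.2, 69.7 and 58.4 CPM in control and at 99.7, 72.1 and 55.2 CPM with poly I:C. In both genes pig 1 of poly I:C lay above every control library and pig 3 below every one. For NDUFB9, pig 2 also lay above control, by less than 3 CPM.

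SDHB encodes the iron-sulphur subunit of succinate dehydrogenase, complex II, which hands electrons from the flavoprotein to ubiquinone (chromosome 6, 75648362 to 75678111). It was at 84.8, 71.5 and 89.8 CPM in control, at 56.5, 45.9 and 34.1 CPM with poly I:C and at 41.2, 45.4 and 56.8 CPM with B. subtilis. E. faecium with poly I:C gave 41.6, 37.1 and 40.2 CPM. None of these 9 libraries reached the lowest control library. E. faecium alone, at 69.9, 64.9 and 90.4 CPM, overlapped control, as did B. subtilis with poly I:C at 83.6, 38.9 and 51.4 CPM, through pig 1.

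SDHB fell with poly I:C by 0.85 (SE 0.255, adjusted p = 0.0254) and with E. faecium and poly I:C by 1.05 (SE 0.256, adjusted p = 0.0078). With B. subtilis the log2 fold change was -0.78 (SE 0.255, adjusted p = 0.106), which did not pass; with the library set as a block it was -0.80 (SE 0.188, adjusted p = 0.008). With B. subtilis and poly I:C it was -0.50 (adjusted p = 0.138), and without pigs 1 and 3 it was -1.09 (adjusted p = 0.0304). The call for poly I:C did not hold without pig 1 of control (-0.83), pig 3 of control (-0.78), pig 2 of poly I:C (-0.86) or pig 3 of poly I:C (-0.68). That for E. faecium with poly I:C held with each of the 18 libraries left out in turn.

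None of the other complex II genes passed the test against control in any treatment, and their difference from SDHB was not tested. SDHA, the flavoprotein that oxidises succinate, was at 137, 161 and 138 CPM in control and 165, 154 and 124 CPM with poly I:C (log2 fold change 0.02, SE 0.157, adjusted p = 0.952). The membrane anchor SDHC was at 61.1, 66.3 and 59.7 CPM in control and 68.6, 61.3 and 49.2 CPM with poly I:C (log2 fold change -0.06, adjusted p = 0.844). Both genes overlapped control there, whereas with B. subtilis SDHA, at 132, 122 and 122 CPM, lay below every control library (log2 fold change -0.22, adjusted p = 0.567). The other anchor, SDHD, was at 87, 103 and 85.1 CPM in control and at 79.4, 75.3 and 61.7 CPM with poly I:C, below every control library, but its log2 fold change of -0.35 did not pass (SE 0.159, adjusted p = 0.133). SDHD also lay below every control library in both other groups with poly I:C. With B. subtilis alone it was at 83.6, 104 and 109 CPM and overlapped control. The annotated span of SDHA overlaps CCDC127, which was at 22.5 to 28.5 CPM in control and 31.9 to 47.1 CPM with poly I:C.

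As a share of complex II, SDHB took 22.9, 17.8 and 24.1% in control, 15.3, 13.6 and 12.7% with poly I:C, 13.4, 13.8 and 15.8% with B. subtilis and 12.7, 12.6 and 12.7% with E. faecium and poly I:C. All 9 of those libraries lay below the lowest control library. B. subtilis with poly I:C, at 20.3, 11.7 and 15.1%, overlapped control through pig 1, as did E. faecium alone at 19.8, 18.4 and 21.1%. ACOD1 encodes the enzyme that makes itaconate, an inhibitor of succinate dehydrogenase. It was at 133, 120 and 55.3 CPM in control, 3080, 2450 and 2300 CPM with poly I:C and 539, 507 and 455 CPM with B. subtilis, with no overlap. E. faecium alone, at 618, 122 and 437 CPM, overlapped control. B. subtilis with poly I:C gave 3730, 2370 and 3000 CPM, and E. faecium with poly I:C 2120, 2610 and 4020 CPM. A relation between ACOD1 and SDHB was not tested. ACOD1 rose by 4.67 on the log2 scale with poly I:C (SE 0.526, adjusted p = 3.75e-05) and by 2.28 with B. subtilis (SE 0.474, adjusted p = 0.0131).

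**Figure D4:**
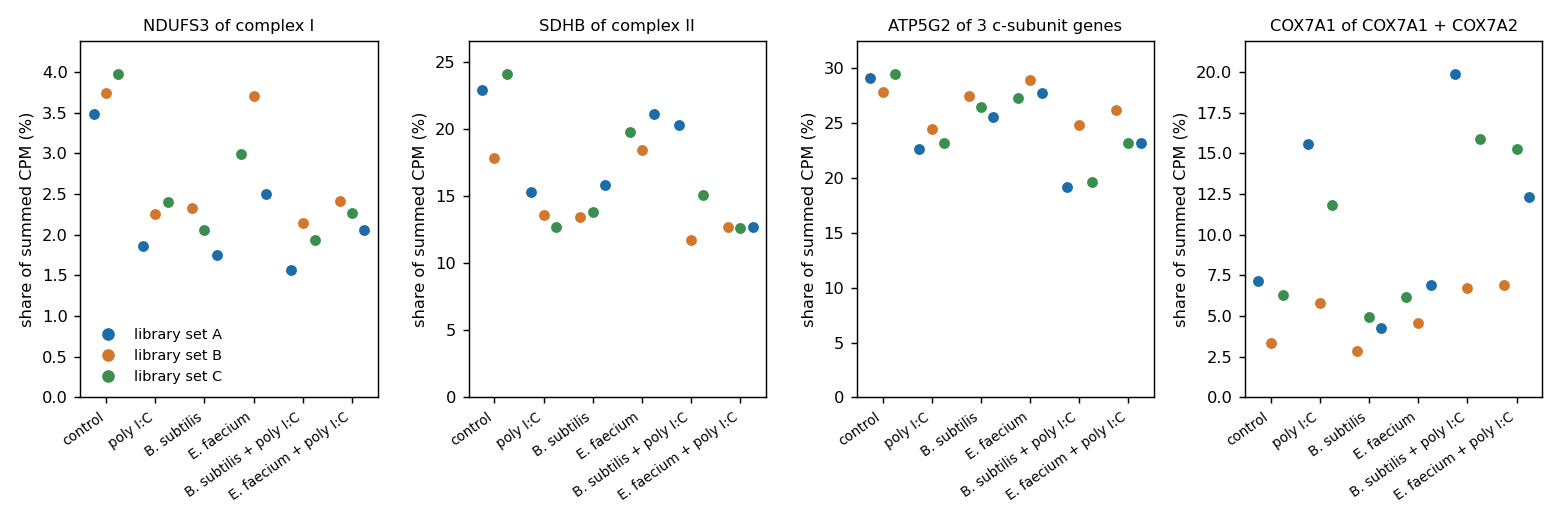
Share of summed CPM in percent (y axes, from 0) in each library, grouped by treatment (x axis) and coloured by library set, for NDUFS3 within complex I, SDHB within complex II, ATP5G2 among the 3 c-subunit genes and COX7A1 within the COX7A1 and COX7A2 pair. These shares do not depend on the scaling; NDUFS3 and SDHB take smaller shares with poly I:C and with B. subtilis than in any control library.

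For complex III, 2 rows matched the naming rule. No other symbol in the table starts with UQCR, so the counts and sums for complex III cover these 2 genes and not the whole complex. For complex IV no COX4 symbol matched. The counts and sums of every complex cover the matched rows only. UQCRB, which binds ubiquinone in the complex, was at 93.9, 96.7 and 70.1 CPM in control and 141, 92.6 and 57.6 CPM with poly I:C. UQCR10, a small accessory subunit, was at 25.2, 29.8 and 30.6 CPM in control and 44.5, 30.3 and 21.3 CPM with poly I:C. Both overlapped control. With B. subtilis and poly I:C UQCR10 was at 82.9, 28.3 and 55 CPM and rose by 0.96 on the log2 scale (SE 0.317, adjusted p = 0.0279); without pigs 1 and 3 the value was -0.02, and with library totals only it was 0.09.

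In complex IV the subunit with the largest fold was COX7A1, the isoform of subunit 7a found mainly in heart and skeletal muscle (chromosome 6, 45519225 to 45520721). Its level was low, at 4.46, 2.43 and 3.76 CPM in control. With poly I:C it was at 18.5, 4.7 and 7.68 CPM, with E. faecium and poly I:C at 5.28, 11.9 and 9.47 CPM, and with B. subtilis and poly I:C at 39.1, 5.3 and 26.3 CPM. All 9 libraries with poly I:C lay above every control library, at the nearest by 4.7 against 4.46 CPM. Those 2 libraries held 87 of 20003067 counts (poly I:C, pig 2) and 154 of 27274279 counts (control, pig 1). By library totals only, the control library would be the higher, so this separation depended on the scaling. Without poly I:C it stayed at 1.9, 3.86 and 3.35 CPM with B. subtilis and 4.62, 2.59 and 5.23 CPM with E. faecium, both overlapping control.

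COX7A1 had a log2 fold change of 1.53 with poly I:C (SE 0.613, adjusted p = 0.0884), which did not pass. With the library set as a block it was 1.40 (SE 0.351, adjusted p = 0.00474), and with the block and without the 3 libraries that stand apart it was 0.93 (adjusted p = 0.00194). In B. subtilis with poly I:C it rose by 2.72 (SE 0.635, adjusted p = 0.004); without pigs 1 and 3 it was 0.56 (adjusted p = 0.605). COX7A2, the form expressed in most tissues, was at 58, 70.2 and 56 CPM in control and 99.6, 76.2 and 57.2 CPM with poly I:C. COX7A1 as a share of the pair was 7.14, 3.35 and 6.3% in control and 15.6, 5.81 and 11.8% with poly I:C, so that the shares overlapped, and 19.9, 6.7 and 15.9% with B. subtilis and poly I:C.

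Of the remaining complex IV genes, COX5B, a nuclear subunit on the matrix side, was at 115, 121 and 99.7 CPM in control and 192, 137 and 108 CPM with poly I:C. COX6B, on the other side of the membrane, was at 73, 78.3 and 79.8 CPM in control and 112, 84.7 and 79.7 CPM with poly I:C. COX6A1 was at 241, 172 and 197 CPM in control and 435, 203 and 218 CPM with poly I:C. In each of the 3 genes the poly I:C library labelled pig 1 was highest and the treatment overlapped control.

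NDUFA4 and C1H15orf48 concern the same place in complex IV. The product of C15orf48, the human counterpart, is known to take the position of NDUFA4 in inflamed human and mouse cells. C1H15orf48 was at 24.9, 69.7 and 38 CPM in control. It was at 267, 628 and 259 CPM with poly I:C, at 275, 271 and 137 CPM with B. subtilis and at 91, 57.9 and 45 CPM with E. faecium. Poly I:C and B. subtilis did not overlap control, and E. faecium did.

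C1H15orf48 rose by 3.12 on the log2 scale with poly I:C (SE 0.473, adjusted p = 0.000307) and by 2.37 with B. subtilis (SE 0.459, adjusted p = 0.0085). With poly I:C present it rose by 3.90 in the B. subtilis group (adjusted p = 4.47e-05) and by 2.92 in the E. faecium group (adjusted p = 0.000429). NDUFA4 itself was at 77.7, 92.8 and 86.6 CPM in control, 131, 90.3 and 86.4 CPM with poly I:C and 72.4, 99.4 and 93 CPM with B. subtilis, overlapping control in both. Its log2 fold changes were 0.26 (SE 0.24, adjusted p = 0.498) and 0.04 (SE 0.24, adjusted p = 0.969). In B. subtilis with poly I:C NDUFA4 was at 193, 91 and 164 CPM and rose by 0.80. That call was lost without pig 1 or pig 3 of control or of that treatment. E. faecium with poly I:C, at 87.9, 88.1 and 84.9 CPM, overlapped control. NDUFA4L2, a relative known from hypoxic cells, was at 0.0491 to 2 CPM in all libraries and did not pass in any comparison.

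Complex V includes the c subunits, which form the rotor ring of ATP synthase and are made from 3 genes that encode the same mature protein. ATP5G2 (chromosome 5, 18871025 to 18879933) was at 78.2, 93.1 and 77.9 CPM in control, 60.7, 65.7 and 39.1 CPM with poly I:C and 70.6, 42 and 44.4 CPM with E. faecium and poly I:C. Both groups lay below every control library. ATP5G1 was at 48.8, 75.5 and 57.2 CPM in control and 51.8, 61.3 and 37.3 CPM with poly I:C, and ATP5G3 at 142, 166 and 129 CPM and 156, 141 and 92 CPM. Those 2 genes overlapped control.

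ATP5G2 had a log2 fold change of -0.59 with poly I:C (SE 0.223, adjusted p = 0.0699), which did not pass, and of -0.61 with the library set as a block (SE 0.164, adjusted p = 0.00709). With E. faecium and poly I:C it fell by 0.67 (SE 0.223, adjusted p = 0.0417), a call that was lost in 12 of the 18 fits that left out 1 library. Of the 3 genes together, ATP5G2 made up 29.1, 27.8 and 29.5% in control. With poly I:C it made up 22.6, 24.5 and 23.2%, with E. faecium and poly I:C 26.2, 23.2 and 23.2%, and in the B. subtilis group with poly I:C 19.2, 24.8 and 19.6%. The 9 libraries with poly I:C thus lay below every control library; B. subtilis alone, at 27.5, 26.5 and 25.6%, did too, by less than 1 percentage point at its nearest, and E. faecium alone, at 27.3, 28.9 and 27.7%, overlapped control. Reads shared by these related genes may have been split or dropped by the counting, whose settings the sources used here do not give.

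ATP5D, the delta subunit of the central stalk (chromosome 2, 77216430 to 77219301), was at 108, 117 and 110 CPM in control and 79.8, 65.2 and 64.4 CPM with E. faecium and poly I:C. It fell there by 0.68 (SE 0.22, adjusted p = 0.036), a call lost in 7 of 18 fits that left out 1 library. With poly I:C it was at 99.4, 84 and 60.8 CPM and with B. subtilis at 80.7, 73.7 and 87.2 CPM, each below every control library, with log2 fold changes of -0.46 and -0.47 that did not pass (adjusted p = 0.154 and 0.284). ATP5I, subunit e, which helps ATP synthase to form dimers, was at 27.1, 25.1 and 28.2 CPM in control. It was at 49.7, 28 and 23.8 CPM with poly I:C, 28.4, 28.3 and 29.3 CPM with B. subtilis and 29, 31.4 and 34.7 CPM with E. faecium. The groups given a bacterium alone lay just above every control library, with log2 fold changes that did not pass. By library totals only, the B. subtilis libraries would lie below every control library and the E. faecium libraries would overlap control. This separation thus depended on the scaling.

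ATP5J2, ATP5L and ATP5J, also small subunits of ATP synthase, were alike. ATP5J2, subunit f, was at 74.8, 76.4 and 71 CPM in control and 127, 82 and 64.4 CPM with poly I:C. ATP5L, subunit g, was at 75, 83 and 69 CPM in control and 125, 87.2 and 71.5 CPM with poly I:C. ATP5J, coupling factor 6, was at 46.1, 43.2 and 41.3 CPM in control and 83, 44.9 and 36.7 CPM with poly I:C. All 3 overlapped control, with the library labelled pig 1 the highest. The annotated span of ATP5J overlaps GABPA and that of ATP5L an uncharacterised gene.

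Adding B. subtilis to poly I:C changed 0 of the 67 genes relative to poly I:C alone in edgeR's test and 0% of all genes. DESeq2 called 0 of the 62 it gave an adjusted p, and 28 of 6466 genes in all. In edgeR's test, however, 36 of the 67 had an unadjusted p under 0.05, as did 10.5% of all genes. The log2 fold change lay above 0 in 65 of 67 genes, with a median of 0.65 against -0.04 for all genes. Without pig 2 of B. subtilis with poly I:C, 42 of the 67 were called, where 15.1% of all genes were, and without pigs 1 and 3 the median was -0.12. Adding E. faecium to poly I:C also changed 0 of 67 and 0% of all genes, with 0 at an unadjusted p under 0.05 and 0 by DESeq2. There 63 of 67 lay below 0, as did 6948 of all 13592 genes, with medians of -0.21 and -0.01. Without pig 1 of poly I:C, 23 of 67 lay below 0 and their median was 0.03. Both comparisons gave 0 calls with the library set as a block, where again 0% of all genes passed.

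Against control, B. subtilis with poly I:C raised 30 of the 67 genes and lowered 0, where 19% of all genes rose and 16.6% fell. These were 16 of 37 genes of complex I, 0 of 4 of complex II, 1 of 2 of complex III, 7 of 7 of complex IV and 6 of 17 of complex V. The median log2 fold change was 0.76 for complex I, -0.11 for complex II, 0.83 for complex III, 1.13 for complex IV and 0.50 for complex V, against -0.02 for all genes. With library totals only, 1 gene rose and 16 fell, with a median of -0.12 for the 67 and -0.82 for all genes. The sign of the group's median against control thus depended on the scaling.

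That rise rested on pigs 1 and 3. Without these libraries, 0 of the 67 genes rose and 2 fell, NDUFS3 and SDHB, while 9.23% of 14416 genes tested still rose and 5.88% fell. The median over the 67 was then -0.02. This leaves 1 library of the treatment, whose spread was taken from the other groups. A block for the library set gave 46 that rose and 2 that fell, where 27.1% of all genes rose and 27.5% fell, and with only the 2 groups in the fit 3 rose. The plot of fold changes with and without these libraries places most genes near 0 on the second axis.

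**Figure D5:**
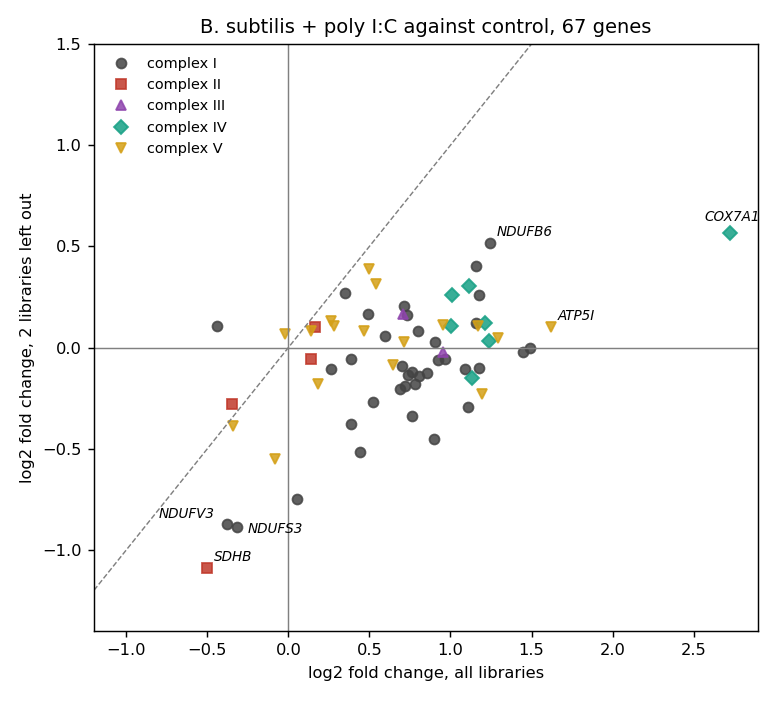
Log2 fold change of the 67 genes in B. subtilis with poly I:C against control, from all libraries (x axis) and without pigs 1 and 3 of that treatment (y axis); points are genes marked by complex and the dashed line marks equal values. Most genes lie below the line, with a median of 0.73 on the x axis and -0.02 on the y axis, and SDHB, NDUFS3 and NDUFV3 are lowest on the y axis; with library totals only the x values would centre on -0.12.

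Among the genes that rose, ATP5I was at 133, 28.9 and 85.7 CPM and rose by 1.62 (SE 0.382, adjusted p = 0.00432), and NDUFA13 was at 189, 42.7 and 122 CPM and rose by 1.45 (SE 0.397, adjusted p = 0.0105). NDUFB9 was at 207, 68.3 and 144 CPM (log2 fold change 1.16, adjusted p = 0.00738), COX5B at 341, 139 and 247 CPM (1.12, adjusted p = 0.0054) and COX6A1 at 706, 222 and 482 CPM (1.21, adjusted p = 0.0256). COX7A2 was at 158, 73.9 and 139 CPM and COX6B at 207, 83.5 and 172 CPM, with log2 fold changes of 1.01 and 1.00. ATP5J2 was at 242, 80 and 177 CPM, ATP5J at 164, 45.2 and 110 CPM and ATP5L at 203, 82.3 and 156 CPM. In every one of these genes pigs 1 and 3 lay far above control, and pig 2 lay within the control range or less than 20 CPM above it.

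Not all genes went up in these 2 libraries. NDUFS1, the largest core subunit of complex I, was at 28.2, 57.7 and 31.8 CPM against 47, 63 and 49.8 CPM in control, so that pigs 1 and 3 were below every control library. SDHD was at 69.3, 76.1 and 71 CPM, also below control. The catalytic beta subunit of ATP synthase, ATP5B, was at 559, 478 and 445 CPM against 402, 534 and 413 CPM in control and overlapped it. Among the mitochondrially encoded subunits, ND2 was at 28.3, 156 and 84.7 CPM against 141, 172 and 257 CPM in control, while COX1 was at 2910, 2500 and 4010 CPM against 1720, 2090 and 2800 CPM.

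E. faecium with poly I:C raised 0 and lowered 5 of the 67 genes against control, where 13.3% of all genes rose and 9.9% fell: NDUFS3, NDUFV3, SDHB, ATP5D and ATP5G2. With the library set as a block, poly I:C raised 2 (COX7A1 and NDUFB6) and lowered 5 (SDHB, NDUFS3, ATP5G2, NDUFV3 and ATP5D), where 20.9% of all genes rose and 20.8% fell. E. faecium with poly I:C then raised 2 and lowered 6, where 21.2% rose and 21.5% fell. The 2 that rose and 5 of the 6 that fell carry the names just given for poly I:C, and the sixth was NDUFB10; both comparisons share the control libraries. B. subtilis with the block raised 0 and lowered 2, NDUFS3 and SDHB, where 9.12% rose and 9.31% fell, and E. faecium changed 0 of 67 and 0% of all genes.

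E. faecium against B. subtilis changed 0 of 67 genes, where 0.177% of all genes passed; 3 of the 67 and 8.59% of all genes had an unadjusted p under 0.05, and DESeq2 called 0 of the 67 and 2.21% of all genes. Under a block for the library set NDUFS3 alone passed, higher with E. faecium by 0.70, where 6.82% of all genes passed. The change with B. subtilis in the presence of poly I:C minus that in its absence passed in 0 of 67 genes, where 0.0368% of all genes passed; 14 of the 67 and 8.95% of all genes had an unadjusted p under 0.05, and DESeq2 called 1 of the 67 and 0.883% of all genes. The same difference for E. faecium passed in 0 of 67 and in 0% of all genes, with 0 at an unadjusted p under 0.05 and 0 by DESeq2. With the library set as a block, 2 genes and 3.83% of all genes passed for B. subtilis, and 0 and 0% for E. faecium.

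Of 12 tested subunits encoded by the mitochondrial genome, 0 differed among the 6 treatments in edgeR's test, and 0 had an unadjusted p under 0.05. In that test 29.7% of all genes differed. Under the library set block 1 of 12 differed, ND2 (adjusted p = 0.0403), where 58.1% of all genes did. Against control, B. subtilis with poly I:C then raised 1 of the 12 and lowered 3. There 27.1% of all genes rose and 27.5% fell. The sums of the mitochondrially encoded subunits were 6052, 6127 and 8960 CPM in control and 8113, 6319 and 10710 CPM with poly I:C, and they overlapped. The spread within E. faecium was the widest, at 11990, 5541 and 4348 CPM.

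Genes that lie outside the naming rule but serve the same complexes were counted from lists, to be read against the 12.9% of all genes that rose and the 9.55% that fell with poly I:C. Of 6 tested subunits or counterparts, 2 rose with poly I:C: C1H15orf48 and NDUFAB1, the mitochondrial acyl carrier protein that is part of complex I. NDUFAB1 was at 49.2, 85.5 and 54 CPM in control, 322, 167 and 174 CPM with poly I:C and 75.8, 88.8 and 69.2 CPM with B. subtilis. It lay above control in every poly I:C library and overlapped it with B. subtilis, and it rose by 1.81 with poly I:C (SE 0.362, adjusted p = 0.00212). It also rose with E. faecium and poly I:C, by 1.60 (adjusted p = 0.00473), and with B. subtilis and poly I:C, by 2.50 (adjusted p = 0.000151).

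Of 15 tested complex I assembly factors, 1 rose and 3 fell with poly I:C, where 12.9% of all genes rose and 9.55% fell. NDUFAF6 was at 4.55, 9.35 and 5.15 CPM in control and 1.41, 1.94 and 1.66 CPM with poly I:C and fell by 1.92 (SE 0.377, adjusted p = 0.0019). TMEM186 fell by 1.12 (adjusted p = 0.0202) and ACAD9 by 0.80 (adjusted p = 0.0472), both of them part of the assembly complex for the membrane arm. NUBPL, which delivers iron-sulphur clusters to complex I, rose by 0.79 (adjusted p = 0.0154), from 14, 14.9 and 13.5 CPM to 30.4, 19.4 and 23.6 CPM. With B. subtilis alone 0 of the 15 passed.

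For the other complexes, BCS1L, which inserts the iron-sulphur protein into complex III, fell by 0.85 with poly I:C (adjusted p = 0.0345), as 1 of 3 tested factors. TMEM70, needed to assemble ATP synthase, fell by 0.71 (adjusted p = 0.024), from 34.3, 27 and 32 CPM to 24.9, 16 and 16.1 CPM, as 1 of 6. Of 3 complex II and 11 complex IV assembly factors tested, 0 passed with poly I:C alone against control. In B. subtilis with poly I:C, 1 of the 3 rose and 1 fell, and 5 of the 11 rose. There 19% of all genes rose and 16.6% fell. In E. faecium with poly I:C, 0 of the 3 passed and 1 of the 11 fell, where 9.9% of all genes fell.

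Of 13 tested regulators of mitochondrial gene expression, 0 rose and 3 fell with poly I:C, where 9.55% of all genes fell. Under the block for the library set 8 of 13 fell, where 20.8% of all genes did. PPARGC1B, a transcriptional coactivator of these genes, was at 22.1, 24.9 and 32.1 CPM in control, 12.6, 11.9 and 18.1 CPM with poly I:C and 15.5, 13.1 and 11.9 CPM with B. subtilis, with no overlap. PPARGC1B fell by 0.89 with poly I:C (SE 0.239, adjusted p = 0.014) and by 0.97 with B. subtilis (SE 0.24, adjusted p = 0.0312). POLRMT, the mitochondrial RNA polymerase, was at 34.7, 41.2 and 34.7 CPM in control and 21.1, 21.2 and 23.3 CPM with poly I:C and fell by 0.75 (SE 0.184, adjusted p = 0.00822). TFB2M, its initiation factor, fell by 0.63 (adjusted p = 0.049). Of 16 tested TCA cycle genes, 0 rose and 1 fell with poly I:C: PDHA1, of the pyruvate dehydrogenase complex, fell by 0.50 (adjusted p = 0.0271).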

How the data were processed

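RNA-seq counts of 18 libraries (6 treatments, 3 each) were used. The deposited table held whole-number counts per gene; the submitters' processing notes name Sscrofa11.1 and DESeq2. The aligner, counting tool, settings and strandedness were not given in the sources used here. It held 0 columns of other series. Of 30686 rows, 351 had no gene name (0.515 to 1.04% of counts) but had a gene ID, and stayed in the totals and tests. Coordinates are those of RefSeq for Sscrofa11.1.

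Counts were tested in R 4.3.3 with edgeR 4.0.16 (quasi-likelihood, two-sided): TMM factors, filterByExpr with a minimum count of 10, 1 mean per treatment, no block. SEs are those implied by the F value. Alternatives were DESeq2 1.42.0, other scalings, no filter, only the groups compared, the pig number or the library set as a block, each library left out, and fits without the libraries that stand apart. The fits without those libraries, and the set block combined with them or with another scaling, were chosen after seeing the data. P-values measure the spread between these libraries. Log2 ratios used a pseudocount of 0.5 CPM.

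The members, lists and comparisons were chosen with earlier results of these data known. Library values, for some or all treatments, are given for up to 4 genes per complex with the smallest adjusted p. They are also given for all SDH genes, isoform sets and genes called against control in treatments other than B. subtilis with poly I:C. Of the genes called in B. subtilis with poly I:C, only some are shown. From the lists of related genes, up to 5 past the threshold are named. Genes named beyond this rule (NDUFS1, ATP5B, ND2, COX1) were chosen after their values were seen. The labels name pigs, but the correlations of deviations from treatment means (same number, median -0.243; same set, 0.643) do not follow the numbers. The model was tested on simulated data for B. subtilis against control over 13592 genes: 14 of 100 genes changed 2-fold and 61 of 100 changed 4-fold were recovered, with 0 false calls.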

Additional observations from a re-analysis of the deposited data

Results flagged for a closer look

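With the library set as a block, the difference between the change with B. subtilis in the presence of poly I:C and in its absence passed edgeR's test for 2 genes, and they are given here because an effect differed between the 2 backgrounds. It was 1.40 on the log2 scale for NDUFS3 and 1.11 for SDHB. In that fit 3.83% of all genes passed. Over the 67 genes this difference lay above 0 in 64, with a median of 0.705, against -0.0219 for all genes. In the fit with no block it lay above 0 in 65 of 67, with a median of 0.685. Whether NDUFS3 and SDHB departed from the shift of the whole group was not tested. Without pigs 1 and 3 of B. subtilis with poly I:C, and with no block, the difference was 0.84 for NDUFS3 and 0.56 for SDHB. Without these libraries and pig 1 of poly I:C, with the library set block, the difference was 0.87 for NDUFS3 (adjusted p = 0.063) and 0.75 for SDHB (adjusted p = 0.244). With no block and all libraries the adjusted p was 0.0968 for NDUFS3 and 0.37 for SDHB. The cause was not tested.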

How the results depend on the processing

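Leaving out each of the 18 libraries in turn gave 0 to 3 genes for poly I:C against control (all libraries, 2; 0 without pig 3 of poly I:C), 0 to 2 for B. subtilis (1; 0 without pig 3 of control or pig 2 of B. subtilis) and 2 to 6 for E. faecium with poly I:C (5; 2 without pig 2 or 3 of control or of that treatment). It gave 9 to 48 for B. subtilis with poly I:C against control (30; 9 without pig 1, 17 without pig 3 and 48 without pig 2 of that treatment, 17 without pig 1 and 12 without pig 3 of control). It gave 0 to 42 for that treatment against poly I:C (42 without its pig 2), 0 to 12 for the difference of the B. subtilis effect with and without poly I:C (12 without that library) and 3 to 47 for any difference among treatments (18; 3 without pig 3, 4 without pig 1 and 47 without pig 2 of B. subtilis with poly I:C, 9, 8 and 11 without control 1, control 3 and B. subtilis 2). The other comparisons stayed at 0. For most of the fits in this section the share of all genes called is not given. Their counts can follow that share and are not to be read as particular to the 67 genes. For poly I:C the share was 12.9% up and 9.55% down with no block. The library set block gave 20.9% and 20.8%. With library totals only, 0 genes rose and 18 fell for poly I:C, and 0 rose and 3 fell for B. subtilis. For B. subtilis with poly I:C 1 rose and 16 fell, and for E. faecium with poly I:C 0 rose and 30 fell. The median log2 fold changes of all genes with this scaling were, in that order, -0.54, -0.33, -0.82 and -0.57. Upper quartile factors gave 4 for poly I:C, and no filter gave 3 for E. faecium with poly I:C. Fits of only the groups compared gave 2 for B. subtilis and 3 for B. subtilis with poly I:C. DESeq2 gave 1 for the difference of B. subtilis effects and 39 for any difference. The replicate block by pig number gave 2, 1, 26 and 5 genes for poly I:C, B. subtilis, B. subtilis with poly I:C and E. faecium with poly I:C, and 12 for any difference; the numbers did not pair the libraries. The library set block gave 7, 2, 48 and 8 for the same comparisons, 1 for E. faecium against B. subtilis, 2 for the difference of B. subtilis effects and 49 for any difference. With that block and library totals these were 29 (1 rose), 15 (0 rose) and, for E. faecium with poly I:C, 50 (1 rose), then 3, 3 and 37. With that block and upper quartile factors they were 8, 2, 9, 1, 2 and 43. The 2 block combinations just given were chosen after seeing the data, as were fits that left out pigs 1 and 3 of B. subtilis with poly I:C, which gave 2 genes for B. subtilis, 2 for B. subtilis with poly I:C and 3 for any difference. Leaving out also pig 1 of poly I:C gave 4 for poly I:C, 2, 2 and 4; with the library set block it gave 9, 4, 7, 11 for E. faecium with poly I:C, 4 for E. faecium against B. subtilis and 9 for any difference.

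Some genes that rose with B. subtilis and poly I:C had the opposite sign in other fits. With library totals only the log2 fold change was -0.049 for NDUFA4, -0.116 for NDUFA10, -0.0511 for NDUFB8, -0.0896 for NDUFB2, -0.137 for ATP5H and -0.0124 for NDUFA11, and with the library set block as well it was -0.0693, -0.111, -0.0783, -0.116, -0.141 and -0.00655. Without the 2 libraries, and without the 3, it was -0.149 and -0.15 for COX7C, -0.229 and -0.23 for ATP5E, -0.143 and -0.144 for NDUFB8, -0.022 and -0.0231 for NDUFA13, -0.292 and -0.293 for NDUFS5, -0.00429 and -0.00541 for NDUFA2, -0.121 and -0.122 for NDUFB2, -0.103 and -0.104 for NDUFB7, -0.0204 and -0.0214 for UQCR10, -0.126 and -0.127 for NDUFA11, -0.105 and -0.106 for NDUFB11, and -0.0585 and -0.0596 for NDUFA3. With the block and without the 3 it was -0.0685 for ATP5E, -0.00373 for NDUFV1, -0.127 for NDUFB8, -0.094 for NDUFS5, -0.0359 for NDUFB2, -0.0476 for ATP5H, -0.101 for NDUFB7, -0.0684 for UQCR10, -0.258 for NDUFA11 and -0.0715 for NDUFB11. The causes were not tested.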
